A study of Mus musculus with 48 samples.

Results

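The opioid genes of the amygdala were followed through 7 members, matched by symbol to the gene identifiers of the deposited table: the precursor genes Pomc, Pdyn and Pnoc and the receptor genes Oprm1, Oprd1, Oprk1 and Oprl1. All 7 were found among the 52636 genes listed. RNA had been sequenced from 48 punches of the right amygdala, each 1 library from 1 female mouse of the C57BL/6NTac-Brd1 strain aged 8 to 11 weeks. Mice carried either 2 intact copies of Brd1 (WT) or a constitutive targeted deletion in 1 copy (Brd1+/-), the other copy being intact. Brd1 encodes a chromatin protein with a bromodomain. Each genotype had received, under the skin, either saline (vehicle) or imipramine (IMN) at 10 mg/kg, or fluoxetine (FLX) at 5 mg/kg. IMN is a tricyclic antidepressant, while FLX inhibits the serotonin transporter. This gave 6 groups of 8 mice: WT vehicle, Brd1+/- vehicle, WT IMN, Brd1+/- IMN, WT FLX and Brd1+/- FLX. All mice, vehicle included, had been through behavioural tests that ended with forced swimming shortly before they were killed. The comparisons asked whether the deletion, a drug or both together altered the level of an opioid mRNA. Vehicle mice carried code numbers of another range than drug-treated mice, so in a drug against vehicle comparison the drug and anything that followed those ranges cannot be told apart. Among drug-treated mice the highest code numbers belonged to WT mice alone. Genotype and anything that followed these numbers can thus not be fully told apart after IMN or FLX.

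Opioid peptides are cut from large precursors and act on receptors that couple to inhibitory G proteins. Pomc gives beta-endorphin and melanocortins, Pdyn gives dynorphins, Pnoc gives nociceptin, and Penk, the remaining classical precursor, gives enkephalins. The mu receptor (Oprm1) binds beta-endorphin and enkephalins, the delta receptor (Oprd1) enkephalins, the kappa receptor (Oprk1) dynorphins, and the nociceptin receptor (Oprl1) nociceptin. In the amygdala these peptides are best known from GABAergic neurons of the central nucleus and intercalated cells, while Pdyn, Penk and several receptors are also abundant in the adjoining striatum. Pomc is known chiefly from arcuate neurons of the hypothalamus and from the pituitary. TPM, the unit deposited, gives a gene's reads per unit of length as a share of its library's total, so levels may be compared between genes, but the number of reads behind a value is unknown. In such tissue, fewer cells of a type and less RNA per cell cannot be told apart.

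The members are scattered over the genome. In GRCm38, Pomc lies at chr12:3954951-3960642, Pdyn at chr2:129686565-129699844, Pnoc at chr14:65400673-65425472, Oprm1 at chr10:6758506-7038198, Oprd1 at chr4:132110726-132144486, Oprk1 at chr1:5588466-5606131 and Oprl1 at chr2:181715016-181720985. All are protein-coding, and only Oprm1 overlaps other annotated genes, Gm10945 and Ipcef1. Both run on the opposite strand, and Ipcef1 shares 96 of the 8037 exonic bases of Oprm1. Whether reads were assigned by strand is not stated, so a part of the Oprm1 value is uncertain.

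Promoter sequence was available from RefSeq for 5 of the 7 members, on the GRCm38.p6 assembly. It is shown because these genes fell into sets that moved together, and in part oppositely, between libraries, as described further down. The 250 bases upstream of an annotated start are printed 5′ to 3′ on the gene's strand, in a window without annotated exon bases. Capitals mark matches, on either strand, to the TATA box TATAAA, the GC box GGGCGG and the AP-1 motif TGANTCA. They also mark AAGGTCA, a part of the NBRE bound by Nr4a factors, and the cAMP response element TGACGTCA or its TGACG part, which the full element contains.
Pomc, chr12:3954695-3954944 on the plus strand: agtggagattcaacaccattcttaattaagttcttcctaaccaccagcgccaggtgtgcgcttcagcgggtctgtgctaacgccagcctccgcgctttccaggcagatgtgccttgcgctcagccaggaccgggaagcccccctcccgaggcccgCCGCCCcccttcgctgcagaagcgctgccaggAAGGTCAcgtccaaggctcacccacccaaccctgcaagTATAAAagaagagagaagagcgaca
Pdyn, chr2:129699939-129700188 on the minus strand: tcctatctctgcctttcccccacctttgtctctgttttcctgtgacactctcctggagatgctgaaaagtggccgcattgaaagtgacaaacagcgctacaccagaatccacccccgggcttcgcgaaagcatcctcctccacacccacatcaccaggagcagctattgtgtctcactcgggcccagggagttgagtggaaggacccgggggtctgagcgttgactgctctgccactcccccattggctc
Oprm1, chr10:6788320-6788569 on the plus strand: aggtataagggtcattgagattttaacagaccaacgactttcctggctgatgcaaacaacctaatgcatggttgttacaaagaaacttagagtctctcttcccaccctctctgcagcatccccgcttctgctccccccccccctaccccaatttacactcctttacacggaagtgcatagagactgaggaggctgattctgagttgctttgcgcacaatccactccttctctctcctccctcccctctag
Oprd1, chr4:132144487-132144736 on the minus strand: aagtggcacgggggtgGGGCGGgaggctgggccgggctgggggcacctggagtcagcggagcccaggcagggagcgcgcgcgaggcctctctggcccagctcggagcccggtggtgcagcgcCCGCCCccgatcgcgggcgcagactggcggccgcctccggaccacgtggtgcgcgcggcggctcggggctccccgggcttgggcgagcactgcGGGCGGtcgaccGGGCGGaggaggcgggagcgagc
Oprl1, chr2:181714766-181715015 on the plus strand: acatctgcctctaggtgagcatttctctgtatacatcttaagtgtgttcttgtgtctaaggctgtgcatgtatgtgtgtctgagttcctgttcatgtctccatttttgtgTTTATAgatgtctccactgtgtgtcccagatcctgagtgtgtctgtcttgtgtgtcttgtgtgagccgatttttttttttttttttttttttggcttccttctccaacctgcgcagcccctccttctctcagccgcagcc

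The windows differed in composition. The Pomc window held 1 TATA box, 1 GC box and 1 match to the NBRE part. The Oprd1 window held 4 GC boxes, and the Oprl1 window held 1 TATA box, read on the reverse strand. The Pdyn and Oprm1 windows held none of the letters searched. RefSeq lists 2 starts for Pdyn, 3 for Oprm1 and 3 for Oprl1, and 1 window of each is shown; that of Oprm1 lies inside the gene's annotated span. Over all 32851 windows of this length, a TATA box was found in 12.4%, a GC box in 32.7%, the NBRE part in 4.08%, an AP-1 motif in 6.75%, the TGACG part in 17.8% and the full cAMP response element in 1.55%. These matches describe letters in a window and do not show that a factor binds there.

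Some facts of the libraries touch every result below. Brd1 itself was lower in Brd1+/- mice: its median was 26.2 against 37.9 TPM under vehicle, 22.8 against 37.3 TPM after IMN and 24.4 against 33.1 TPM after FLX. Averaged over treatments the log2 difference was -0.54 ± 0.06 (SE, limma adjusted p = 4.02e-07). The central and intercalated amygdala list (7 genes) had summed levels of 350.8 to 1817 TPM. Sst had by far the highest median of its genes, 755.1 TPM (150.8 to 1499.5). Tac2 was listed at 0 in 3 libraries, Isl1 in 4 and Crh in 1, so the sum does not show that every punch held each of these cell types. Summed genes of neighbouring tissue varied far more than this sum. The summed level of 8 striatal projection neuron markers ran from 130.6 to 8115 TPM, with a gap between 1009 and 1865 TPM that left 35 libraries below it and 13 above it. Of the 8 libraries in a group, 1 to 3 lay above the gap. Summed hypothalamus markers ran from 1.32 to 10324 TPM, summed choroid plexus markers from 8.23 to 29735 TPM and summed pituitary markers from 0.247 to 155.6 TPM.

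Over all 48 libraries, the receptor Oprl1 and the precursor Pdyn were the highest members, with medians of 57.5 and 54 TPM. They were followed by Pnoc at 17.1, Oprk1 at 14.4, Oprd1 at 11.2, Oprm1 at 8 and Pomc at 2.91 TPM. Neighbours in this order were not clearly separated. Oprl1 exceeded Pdyn in 26 of 48 libraries, Pnoc exceeded Oprk1 in 28 and Oprk1 exceeded Oprd1 in 27, so the order within these pairs depended on the library. The steps from Pdyn to Pnoc, from Oprd1 to Oprm1 and from Oprm1 to Pomc were seen in 35, 32 and 37 libraries. Pomc had the lowest median in each of the 6 groups, and Oprl1 or Pdyn the highest. Penk, which is no member, was far more abundant than any of them, with a median of 527.4 TPM (29.7 to 3536).

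Pomc was low in nearly all punches. In vehicle mice, Pomc lay between 1.87 and 6.5 TPM (median 2.97) in WT and between 1.67 and 15.8 TPM (median 2.95) in Brd1+/-. After IMN, it lay between 1.12 and 8.52 TPM (median 3.48) in WT and between 1.56 and 121.5 TPM (median 2.03) in Brd1+/-. After FLX, it lay between 1.88 and 20 TPM (median 3.34) in WT and between 1.53 and 108.2 TPM (median 2.74) in Brd1+/-. The medians differed little, while single libraries in 5 of the 6 groups stood apart above the rest of their group on the TPM scale. Those libraries are taken up after the group comparisons.

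Pdyn, the dynorphin precursor, spanned the widest range of the members that were above 0 in every library, 0.518 to 234.0 TPM. Vehicle mice had Pdyn levels between 0.518 and 160.2 TPM (median 42.2) in WT and between 3.98 and 155.5 TPM (median 64.4) in Brd1+/-. IMN-treated mice had levels between 10.7 and 213.1 TPM (median 65.1) in WT and between 3.36 and 234.0 TPM (median 33) in Brd1+/-. FLX-treated mice had levels between 11.4 and 168.1 TPM (median 73.7) in WT and between 2.11 and 189.2 TPM (median 89.1) in Brd1+/-. Each group held both low and high libraries and all groups overlapped. The lowest value, in WT vehicle 5, came with Penk at 29.7 TPM and summed GABAergic markers at 368.2 TPM. The 3 libraries next lowest in Pdyn, Brd1+/- FLX 7, Brd1+/- IMN 3 and Brd1+/- vehicle 7, also had low Penk (57.9, 81.5 and 63.6 TPM).

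Pnoc, the nociceptin precursor, ranged from 0 to 44.9 TPM. Under vehicle, Pnoc values spread between 0 and 38.5 TPM (median 13.4) in WT and between 0.311 and 41 TPM (median 18.1) in Brd1+/-. Under IMN, they spread between 1.82 and 38.4 TPM (median 21.2) in WT and between 0.58 and 44 TPM (median 12.9) in Brd1+/-. Under FLX, they spread between 4.41 and 44.9 TPM (median 28.3) in WT and between 0 and 28.9 TPM (median 9) in Brd1+/-. It was listed at 0 in 2 libraries, WT vehicle 3 and Brd1+/- FLX 2. Of 11325 genes with a median of at least 10 TPM, 53 were listed at 0 in at least 1 library, while 6 housekeeping genes were above 0 throughout. The 5 lowest libraries, those at 0 and 3 at 0.311, 0.58 and 0.692 TPM, all had striatal sums of 5818 to 8115 TPM. The 5 highest, at 40.4 to 44.9 TPM, had sums of 140.7 to 341.3 TPM.

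Among the receptors, Oprm1, the mu receptor, ranged from 1.58 to 14.9 TPM. In vehicle mice, Oprm1 lay between 2.07 and 13.4 TPM (median 7.17) in WT and between 2.5 and 14.9 TPM (median 6.39) in Brd1+/-. After IMN, it lay between 2.06 and 14 TPM (median 10.4) in WT and between 1.58 and 14.2 TPM (median 6.88) in Brd1+/-. After FLX, it lay between 3.44 and 14.4 TPM (median 12) in WT and between 2.34 and 10.8 TPM (median 6.06) in Brd1+/-. The WT FLX group was compact apart from 1 library: 7 of its values lay between 9.24 and 14.4 TPM, and WT FLX 6 was at 3.44 TPM. Brd1+/- FLX values reached no higher than 10.8 TPM.

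Oprd1, the delta receptor, had the smallest within-group spread of the members on the log2 scale. Vehicle mice had Oprd1 levels between 9.63 and 21.7 TPM (median 13.9) in WT and between 6.54 and 30.1 TPM (median 12) in Brd1+/-. IMN-treated mice had levels between 6.54 and 22.3 TPM (median 10.9) in WT and between 6.91 and 23.3 TPM (median 8.98) in Brd1+/-. FLX-treated mice had levels between 3.41 and 18.4 TPM (median 8.81) in WT and between 6.95 and 25.5 TPM (median 12.6) in Brd1+/-. Of the 8 WT FLX values, 5 lay below every WT vehicle value, but the highest, 18.4 TPM in WT FLX 4, lay inside that group's range.

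Oprk1, the kappa receptor, and Oprl1, the nociceptin receptor, showed wide and overlapping groups. Under vehicle, Oprk1 values spread between 3.17 and 30.6 TPM (median 15.2) in WT and between 4.87 and 34.2 TPM (median 14.7) in Brd1+/-. Under IMN, they spread between 6.97 and 40.3 TPM (median 17.2) in WT and between 2.66 and 47.4 TPM (median 18.6) in Brd1+/-. Under FLX, they spread between 2.58 and 26 TPM (median 17.8) in WT and between 4.34 and 33.8 TPM (median 11) in Brd1+/-. Oprl1 was highest of the receptors in every group. In vehicle mice, Oprl1 lay between 12.7 and 95.6 TPM (median 51.1) in WT and between 28.5 and 97.4 TPM (median 52.2) in Brd1+/-. After IMN, it lay between 27.1 and 99.1 TPM (median 58.3) in WT and between 27.1 and 108.2 TPM (median 73.2) in Brd1+/-. After FLX, it lay between 45.6 and 101.5 TPM (median 77.4) in WT and between 25.5 and 89.5 TPM (median 56.8) in Brd1+/-. No group stood apart from the others for either gene.

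**Figure D1:**
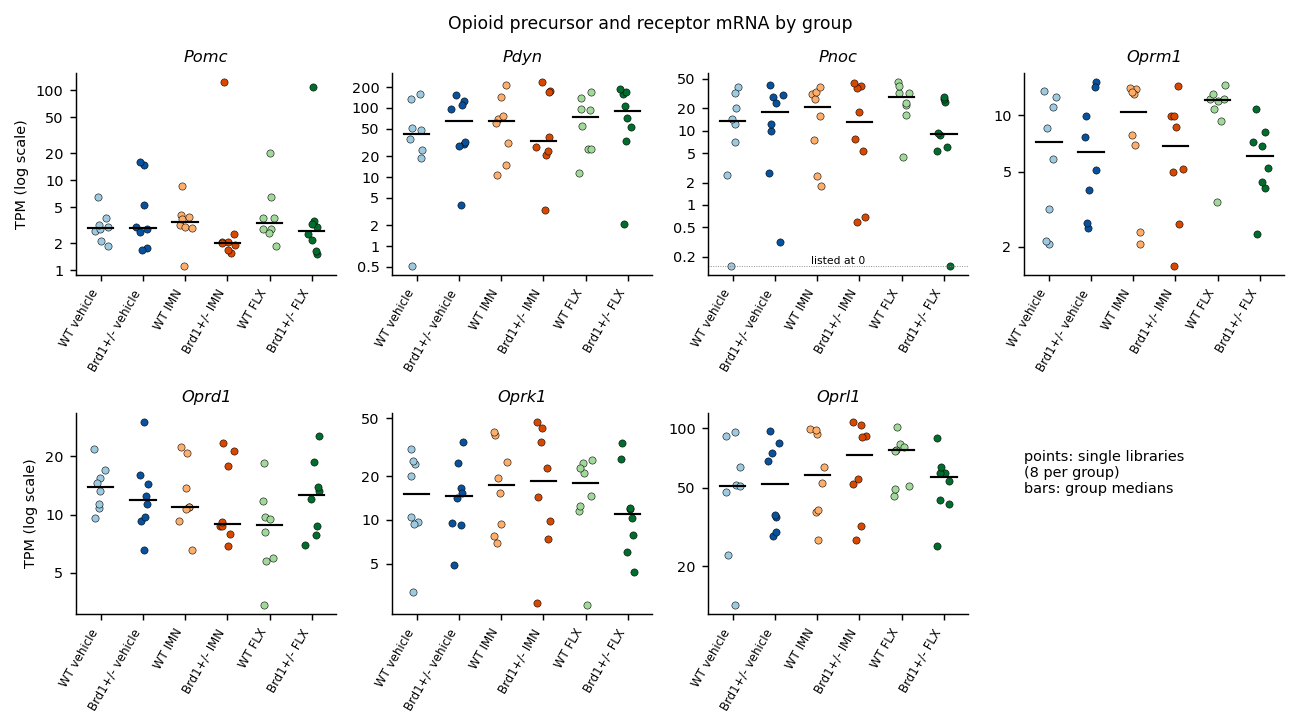
Levels of the 7 members in TPM (log axis) in single libraries, 8 points per group, with bars at group medians; Pnoc values listed at 0 are drawn on the dotted line. All groups overlap for every member, and Pomc shows 2 libraries above 100 TPM, in Brd1+/- IMN and Brd1+/- FLX.

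The spread inside groups was large beside that of other genes. On the log2(TPM + 0.1) scale the pooled within-group SD was 2.24 for Pnoc, 1.92 for Pdyn, 1.40 for Pomc, 1.09 for Oprk1, 0.95 for Oprm1, 0.72 for Oprl1 and 0.62 for Oprd1. The median over 19207 genes with a mean of at least 1 TPM was 0.38. Pnoc lay at the 98.1st percentile of these genes, Pdyn at the 96.2nd, Pomc at the 92.1st and even Oprd1 at the 72.6th.

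No member differed between any pair of groups once p-values were adjusted over all genes. Across 12 comparisons, limma called 0 of 84 member differences at an adjusted p under 0.05, and the lowest adjusted p was 0.177. Without adjustment, 2 of 84 had p under 0.05. The exact permutation test of 8 against 8 libraries, run on the 63 differences between pairs of groups, gave 2 with an unadjusted p under 0.05, and the groups overlapped in all 63. For the 9 pairs of groups, the share of all genes called was as follows. For genotype it was 0.708% under vehicle, 0.017% after IMN and 1.54% after FLX. For IMN against vehicle it was 0% in WT and 0.776% in Brd1+/-, and for FLX against vehicle 0.335% in WT and 0.731% in Brd1+/-. For FLX against IMN it was 0% in both genotypes. The interaction of genotype with IMN called 0.536% of genes, that with FLX 1.71%, and the genotype difference averaged over treatments 0.286%. Beside such shares, 0 of 7 members called is near the background. Intervals were wide, so these data do not show that the levels were equal: for Pdyn the 95% interval of the averaged genotype difference ran from -0.90 to 1.26 on the log2 scale, and for Oprl1 from -0.45 to 0.36.

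The precursors gave the following differences, as log2(TPM + 0.1) with SE. The averaged genotype difference, Brd1+/- minus WT, was 0.12 ± 0.39 for Pomc, 0.18 ± 0.54 for Pdyn and -0.60 ± 0.63 for Pnoc. The comparison with the lowest p was FLX against vehicle in WT for Pomc (0.41 ± 0.39) and for Pdyn (0.91 ± 0.92), and genotype after FLX for Pnoc (-1.73 ± 0.93, limma adjusted p = 0.368). The Pnoc medians behind this were 9 TPM in Brd1+/- FLX and 28.3 TPM in WT FLX, and 1 library at 0 carried much of the value. Without Brd1+/- FLX replicate 2 the Pnoc difference was -0.86 ± 0.50.

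Of the receptors, 2 had an unadjusted p under 0.05, each in 1 comparison. In these comparisons 16.6% (genotype after FLX) and 16.8% (FLX against vehicle in WT) of all genes had such a p, so 1 of 7 members is near the background in both. Oprm1 was at a median of 6.06 TPM in Brd1+/- FLX against 12 TPM in WT FLX, a log2 difference of -0.84 ± 0.31 (95% interval -1.50 to -0.19, limma p = 0.0151, adjusted p = 0.177, exact permutation p = 0.0253). Oprd1 was at a median of 8.81 TPM in WT FLX against 13.9 TPM in WT vehicle, a log2 difference of -0.75 ± 0.27 (95% interval -1.33 to -0.17, limma p = 0.014, adjusted p = 0.181, exact permutation p = 0.0199). Neither passed the adjusted threshold. The Oprm1 difference did pass when WT FLX 6 was left out, at -1.06 ± 0.25 (limma adjusted p = 0.0433). That library also had the highest summed pituitary markers of all, 155.6 TPM.

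Several marker lists moved in the comparisons that gave the receptor differences, hypothalamus markers and immediate-early genes in both. Of 12 such markers 11 were matched and 6 were tested in the genotype comparison after FLX, where 1 was called, Fezf1, lower in Brd1+/-. The matched markers summed to a median of 70.1 TPM in WT FLX (9.22 to 4594), 7.61 TPM in Brd1+/- FLX (3.91 to 18.9) and 6.22 TPM in WT vehicle (1.73 to 54.4). With the mean log2 level of these markers as a covariate, the Oprm1 difference after FLX was -0.41 ± 0.37 and the Oprd1 difference between FLX and vehicle in WT was -0.17 ± 0.22. With the striatal markers instead they were -0.83 ± 0.32 and -0.68 ± 0.25. Between FLX and vehicle in WT, the median log2 difference was also 1.15 over 7 oligodendrocyte markers (6 with an unadjusted p under 0.05), -1.79 over 6 glutamatergic cortex-like markers (2) and -0.99 over 8 of 9 immediate-early genes (6, of which Egr1 and Npas4 were called lower), and 3 of 7 central and intercalated amygdala markers had such a p. In the genotype comparison after FLX the median log2 difference was 0.59 over 8 of 9 immediate-early genes (3 with an unadjusted p under 0.05). There it was 1.17 over 6 glutamatergic cortex-like markers (1 with such a p). With the glutamatergic markers as a covariate the Oprm1 difference was -0.80 ± 0.33 and the Oprd1 difference -0.73 ± 0.31. What part these markers have in the receptor differences was not tested beyond these fits.

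For Oprk1 the lowest p was found between FLX and IMN in Brd1+/-, at -0.51 ± 0.57, and for Oprl1 between genotypes after FLX, at -0.40 ± 0.22 (limma adjusted p = 0.393). The averaged genotype differences were -0.37 ± 0.27 for Oprm1, 0.12 ± 0.18 for Oprd1, -0.12 ± 0.30 for Oprk1 and -0.04 ± 0.20 for Oprl1. The difference of the genotype effect between FLX and vehicle was -2.21 ± 1.55 for Pnoc, -0.93 ± 0.60 for Oprm1 and 0.72 ± 0.42 for Oprd1, with adjusted p-values of 0.502, 0.455 and 0.392 by limma. With the hypothalamus markers as a covariate these 3 values changed sign, to 0.26, 0.13 and -0.23.

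**Figure D2:**
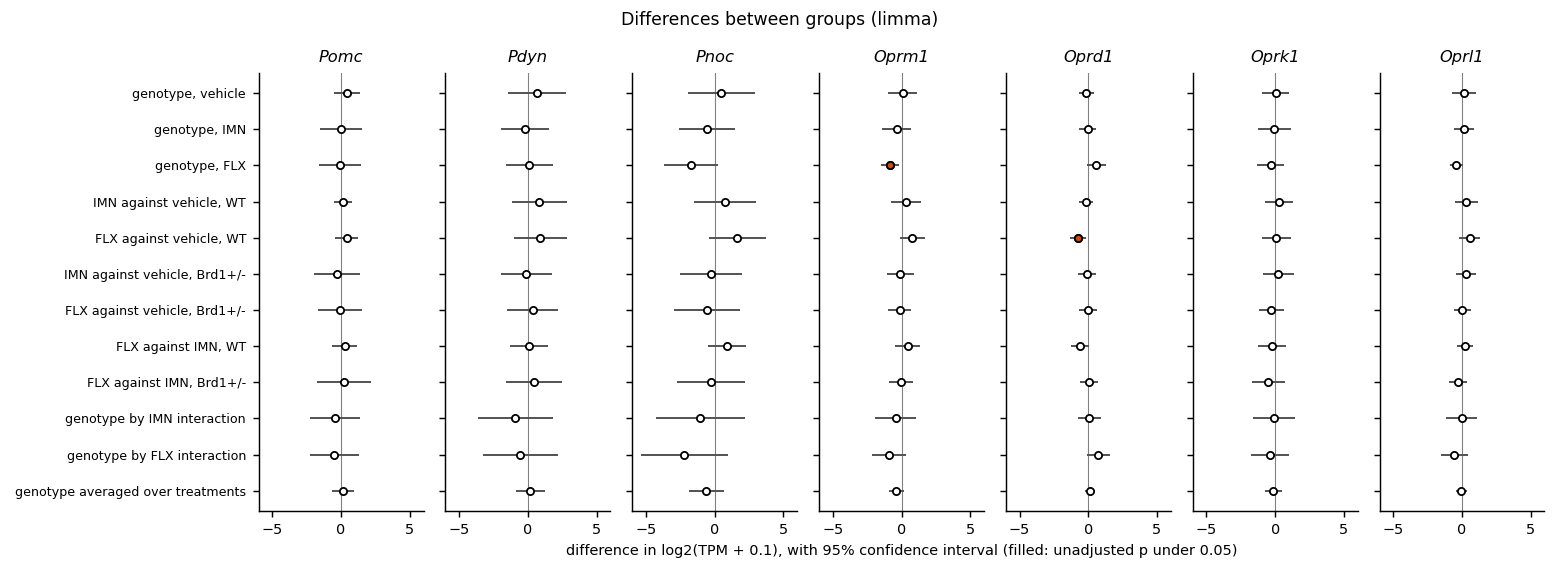
Differences in log2(TPM + 0.1) for the 7 members in 12 comparisons, as points with 95% confidence intervals from limma; filled points have an unadjusted p under 0.05. Only Oprm1 (genotype, FLX; -0.84) and Oprd1 (FLX against vehicle, WT; -0.75) are filled, and none passed the adjusted threshold.

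Genes of the surrounding pathway were called rarely. Of 8 genes for cutting and maturing peptide precursors, limma called 0 in any of the 12 comparisons. In the genotype comparison after FLX 4 of these 8 had an unadjusted p under 0.05, beside 16.6% of all genes: Pcsk1n (-0.45 ± 0.15), Scg5 (-0.27 ± 0.12) and Pam (-0.33 ± 0.12) with lower values in Brd1+/- and Cpe (0.32 ± 0.10) with a higher one. Of 8 genes for breaking peptides down, 1 was called once: Ece2, an endothelin-converting enzyme that can cleave neuropeptides, was lower in Brd1+/- FLX (23.3 to 73.6 TPM, median 33) than in WT FLX (53.9 to 153.9 TPM, median 95). Its log2 difference was -1.24 ± 0.26 (limma adjusted p = 0.0297). The groups overlapped only between 53.9 and 73.6 TPM. The call was lost with any of 8 single libraries left out, WT FLX 1, 2, 3 or 7 or Brd1+/- FLX 3, 5, 7 or 8 (limma adjusted p from 0.0578 to 0.0712). It was also lost with the replicate block, the sample code term, the fit of all 48 libraries, the glutamatergic covariate, and without the libraries above the striatal gap or with Pomc above 100 TPM (adjusted p from 0.0509 to 0.113). In these fits the difference lay between -1.24 and -1.13, whereas with the hypothalamus covariate it was -0.66 (adjusted p = 0.696).

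Of 23 genes for opioid receptor signalling, 1 was called once, and in an interaction. Kcnj5, a subunit of G protein-gated inward rectifier potassium channels, had a genotype by FLX difference of -2.85 ± 0.70 (limma adjusted p = 0.0277). It was a low gene, with medians of 0.563 TPM in WT vehicle, 1.22 in Brd1+/- vehicle, 2.9 in WT FLX and 0.481 in Brd1+/- FLX. The call was lost without Brd1+/- vehicle 2, WT FLX 1, 3 or 7 or Brd1+/- FLX 7 (limma adjusted p from 0.0504 to 0.0584) and without the libraries above the striatal gap (-2.41, adjusted p = 0.165). It was also lost with quantile normalization, the fit of all 48 libraries, the replicate block, the sample code term and the glutamatergic covariate (-2.85 to -2.56, adjusted p from 0.054 to 0.0707), and with the hypothalamus covariate (-1.53, adjusted p = 0.626). Penk was not called in any comparison, with an averaged genotype difference of 0.32 ± 0.49. In the genotype comparison after FLX the median log2 difference was -0.33 over the members, -0.21 over the processing genes, -0.27 over the breakdown genes and -0.07 over the signalling genes, beside -0.06 over all genes tested.

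Where the members did differ was between libraries of the same group, and there they moved in sets. Correlations were taken over the 48 libraries after removing each group's mean, and permutation p-values (100000 shuffles within groups, two-sided) were adjusted over the 21 pairs; 10 pairs passed. Pnoc moved with its receptor Oprl1 (Pearson's r = 0.81, Spearman's rho = 0.88) and with Oprm1 (r = 0.73, rho = 0.75), and Oprm1 with Oprl1 (r = 0.78, rho = 0.76). All 3 had adjusted permutation p = 4.20e-05, from the smallest raw p the shuffles can give. Pdyn moved with its receptor Oprk1 (r = 0.62, rho = 0.52, adjusted permutation p = 4.20e-05), and Oprd1 with Oprk1 (r = 0.52, rho = 0.56, adjusted permutation p = 0.00111) and with Pdyn (r = 0.43, rho = 0.47, adjusted permutation p = 0.00661).

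Some pairs ran against each other between the set of Pnoc, Oprm1 and Oprl1 and that of Pdyn, Oprd1 and Oprk1, mostly with Oprd1. The pairs of Pdyn with Oprm1 (r = 0.06), Pnoc (-0.31) and Oprl1 (-0.31), and of Oprk1 with Oprm1 (0.05) and Oprl1 (-0.17), did not pass with r. Pnoc and Oprd1 were opposed (r = -0.72, rho = -0.64, adjusted permutation p = 4.20e-05), with r between -0.84 and -0.62 in each of the 6 groups. Oprd1 was also opposed to Oprl1 (r = -0.50, rho = -0.48, adjusted permutation p = 0.00084) and to Oprm1 (r = -0.40, rho = -0.38, adjusted permutation p = 0.0129). Pnoc and Oprk1 passed narrowly (r = -0.36, adjusted permutation p = 0.0389) but not by rank (rho = -0.32, adjusted permutation p = 0.0608). By rank, 13 pairs passed: the other 9, with adjusted permutation p-values of at most 0.019, Pdyn with Oprl1 (rho = -0.41, adjusted permutation p = 0.0164) and 3 with Pomc. Pomc, in no pair that passed with Pearson's r, passed by rank with Pnoc (rho = 0.33, adjusted permutation p = 0.0296), Oprd1 (rho = -0.32, adjusted permutation p = 0.0483) and Oprk1 (rho = -0.33, adjusted permutation p = 0.0327). Without the 2 libraries farthest from the median the r of the 10 pairs lay close to these values: 0.82 for Pnoc with Oprl1, 0.75 for Oprm1 with Oprl1, 0.71 for Pnoc with Oprm1, 0.62 for Pdyn with Oprk1 and -0.71 for Pnoc with Oprd1, and -0.30 for Pnoc with Oprk1 at the weak end.

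Inside single groups the signs were mostly kept. The r of Pnoc with Oprl1 lay between 0.65 and 0.98 in the 6 groups, that of Oprm1 with Oprl1 between 0.38 and 0.94 and that of Pdyn with Oprk1 between 0.24 and 0.90. Oprd1 with Oprk1, Pdyn with Oprd1 and Pnoc with Oprk1 each had the opposite sign in 1 group, with values of -0.34, -0.10 and 0.45 there. Penk, taken against the members in a family of 7 pairs, moved with Pdyn (r = 0.87), Oprd1 (0.69) and Oprk1 (0.67), each with adjusted permutation p = 2.33e-05, and was opposed to Pnoc (-0.62, adjusted permutation p = 0.000105), Oprl1 (-0.54, adjusted permutation p = 0.000658) and Pomc (-0.36, adjusted permutation p = 0.0243). Penk with Oprm1 did not pass (-0.22, adjusted permutation p = 0.171).

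**Figure D3:**
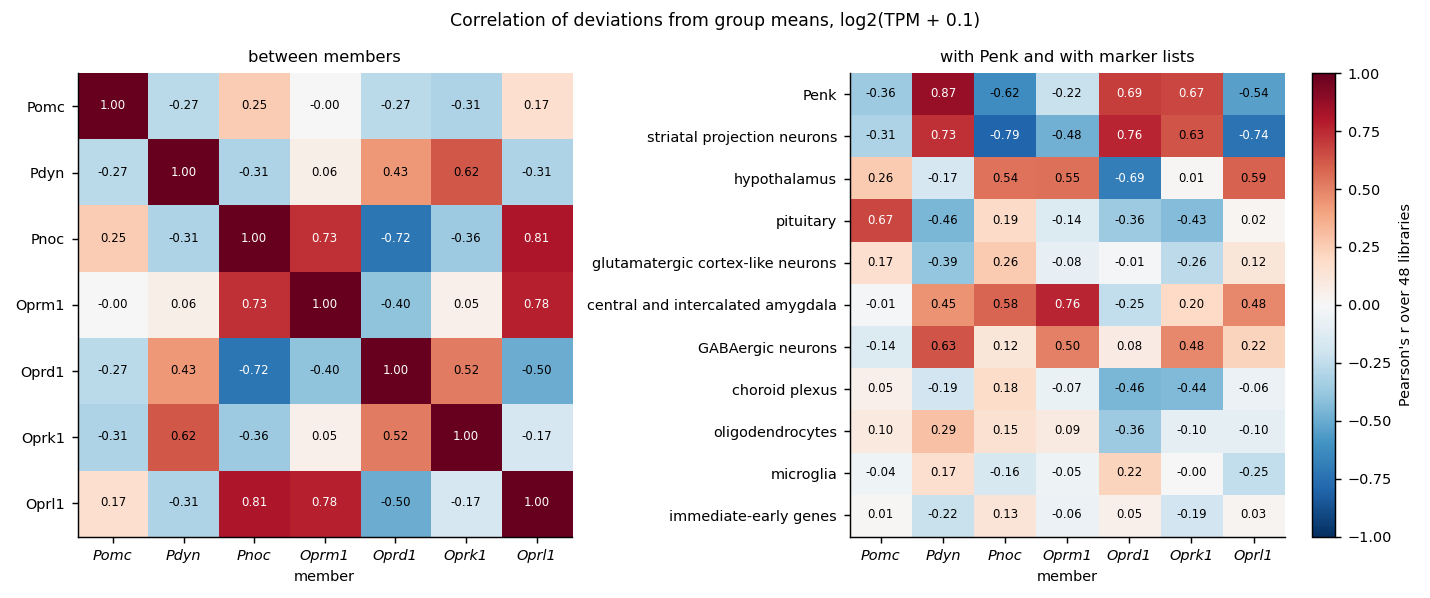
Pearson's r over 48 libraries of deviations from group means in log2(TPM + 0.1): left, between the 7 members; right, of each member with Penk and with the mean log2 level of 10 marker lists. Pnoc, Oprm1 and Oprl1 correlate positively (0.73 to 0.81), and Pdyn, Oprd1 and Oprk1 have positive r with the striatal list (0.63 to 0.76) while Pnoc and Oprl1 have negative r (-0.79 and -0.74).

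Markers of striatal projection neurons moved with the members in these directions. Of 70 relations between 10 marker lists and 7 members, 24 passed. With the striatal list r was 0.73 for Pdyn, 0.76 for Oprd1 and 0.63 for Oprk1, and -0.79 for Pnoc, -0.74 for Oprl1 and -0.48 for Oprm1. All but Oprm1 had adjusted permutation p = 7.78e-05, and Oprm1 had 0.00658. Levels on the 2 sides of the striatal gap show the same in TPM, as a description. Pnoc had a median of 26.7 TPM in the 35 libraries below the gap and 2.46 in the 13 above it, and Oprl1 had 75.3 and 29.7. Pdyn had 31.8 and 137.0, Oprk1 11.8 and 33.8, and Oprd1 9.63 and 20.7. Oprm1 had 9.85 and 2.5.

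Some relations between members held on both sides of the gap and some did not. The r of Oprm1 with Oprl1 was 0.66 below it and 0.65 above it, and that of Pnoc with Oprm1 was 0.64 and 0.55. Pnoc with Oprl1 gave 0.76 and 0.38. The opposition of Pnoc and Oprd1 was -0.23 below and -0.55 above, and that of Oprd1 and Oprl1 was -0.03 and 0.28. Pdyn with Oprk1 gave 0.54 below and -0.03 above. Between the sets, Pdyn with Oprm1 gave 0.61 below and 0.08 above, Pdyn with Pnoc 0.41 and -0.10, and Oprm1 with Oprk1 0.62 and -0.06. When the striatal list was removed by regression, Oprm1 with Oprl1 gave 0.72 and Pnoc with Oprl1 0.54, while Pnoc with Oprd1 gave -0.29 and Pdyn with Oprd1 -0.29. Pdyn with Oprm1 went from 0.06 to 0.68, and Pdyn with Pnoc changed sign, from -0.31 to 0.67. The 3 relations among Pnoc, Oprm1 and Oprl1 kept their sign on both sides of the gap and after removal, with r of at least 0.38. Pnoc with Oprl1 was lower in each case than its 0.81 over all libraries. Of the other relations that had passed with r, Pnoc with Oprd1 also kept its sign throughout. So did Oprd1 with Oprk1 (0.20 below, 0.58 above, 0.10 after removal) and, near 0, Oprm1 with Oprd1 (-0.02, -0.01 and -0.07). What part the striatal markers have in any of these relations was not tested further.

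**Figure D4:**
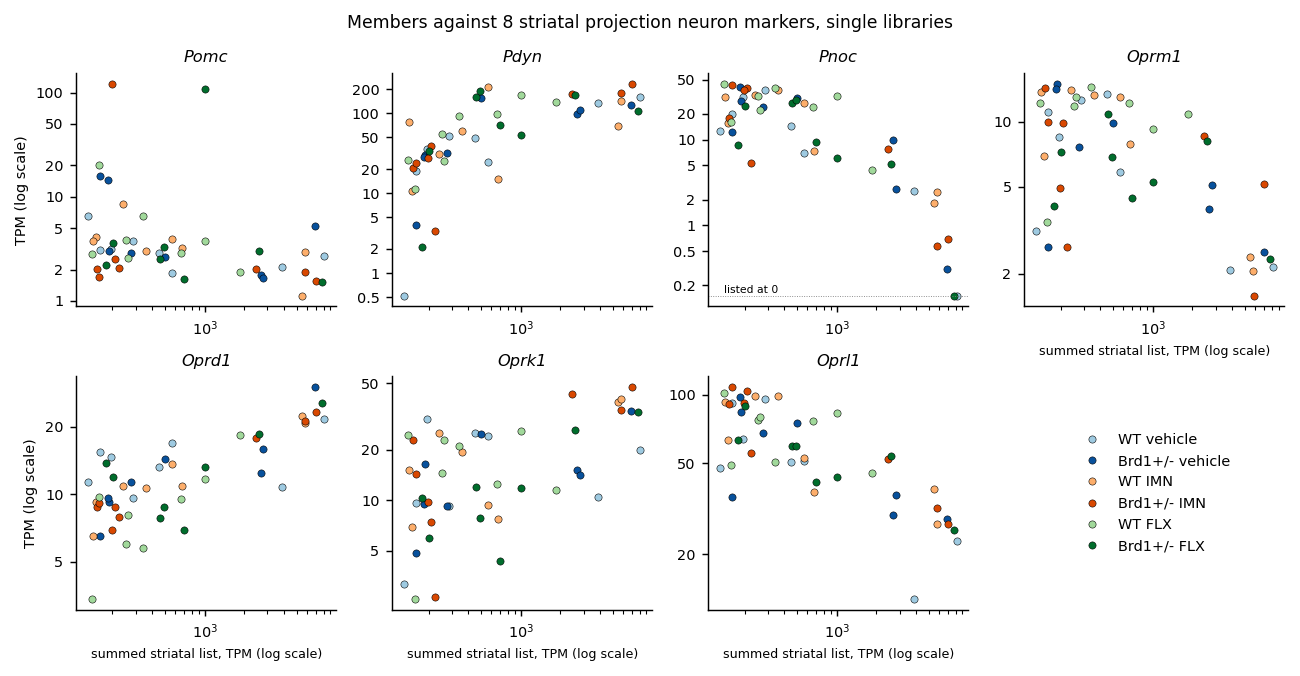
Members' TPM against the summed TPM of 8 striatal projection neuron markers in 48 single libraries, both on log axes and coloured by group; Pnoc values listed at 0 are drawn on the dotted line. Pnoc and Oprl1 decline and Oprd1 climbs as the sum increases from 130.6 to 8115 TPM, and libraries of all groups lie on both sides of the gap between 1009 and 1865 TPM.

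Other lists added to this picture. The central and intercalated amygdala list moved with Oprm1 (r = 0.76, between 0.66 and 0.85 in the 6 groups), Pnoc (0.58), Oprl1 (0.48) and Pdyn (0.45). Without Foxp2, Tshz1 and Isl1, which striatal neurons also express, its r was 0.79 with Oprm1, 0.81 with Pnoc and -0.01 with Pdyn. The hypothalamus list moved with Oprl1 (0.59), Oprm1 (0.55) and Pnoc (0.54) and against Oprd1 (-0.69). The GABAergic list moved with Pdyn (0.63), Oprm1 (0.50) and Oprk1 (0.48). The choroid plexus list was opposed to Oprd1 (-0.46) and Oprk1 (-0.44), the oligodendrocyte list to Oprd1 (-0.36), the glutamatergic cortex-like list to Pdyn (-0.39), and the pituitary list to Pdyn (-0.46) and Oprk1 (-0.43). No relation passed with the microglia list or with the immediate-early genes, which forced swimming is known to induce.

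Genes that resembled each member were sought among 19221 others with a mean of at least 1 TPM, by r of the same deviations over 48 libraries, as a description. Closest to Pdyn were Kcna5 (0.92), a potassium channel, Dlx5 (0.88), a homeobox gene of forebrain GABAergic neurons, and Penk (0.87). Closest to Pnoc were Pmvk (0.97), an enzyme of sterol synthesis, Wdr6 (0.95) and AW551984 (0.94). Closest to Oprm1 were Gabrg1 (0.89), a GABA-A receptor subunit, Rgs17 (0.88), a regulator of G protein signalling, and Peg10 (0.87). Closest to Oprd1 were Gm37711 (0.95), Plcb1 (0.90), a phospholipase C, and Kcnq3 (0.90), a potassium channel. Gm37711, at chr4:132104830-132109363, is a transcript of unsettled status on the strand of Oprd1 that begins 1363 bases past the end of that gene. Closest to Oprl1 were Gprasp1 (0.93), a receptor sorting protein, Prepl (0.93) and Slc1a6 (0.93), a glutamate transporter. Oprk1 had looser companions, Plcxd1 (0.79), Rgs8 (0.76) and Fat3 (0.76), and so had Pomc, with Prl (0.59), Gh (0.57) and D8Ertd738e (0.55).

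Pomc was unlike the rest in that a few libraries held most of it, and those libraries differed in what came with it. In Brd1+/- IMN 4, Pomc was at 121.5 TPM beside Agrp, the other hallmark peptide of the arcuate nucleus, at 52.6 TPM, Oxt at 584.1 TPM and Avp at 1410.4 TPM, while the pituitary hormones Gh and Prl were listed at 0. No other library had Agrp above 2.82 TPM. In Brd1+/- FLX 3, Pomc was at 108.2 TPM with Agrp at 0.431, Oxt and Avp listed at 0, Gh at 0.751 and Prl at 3.07 TPM, so none of these was high. Of the same pituitary list, Pitx1 was at 0.448 TPM there, its highest value, and Tbx19 at 0.304 TPM. Both values are low, but Pitx1 was listed at 0 in 38 libraries and Tbx19 in 44. In Brd1+/- IMN 4 these genes were at 0.219 and 0.353 TPM.

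Pituitary genes came with a further set of libraries. Gh and Prl were both above 10 TPM in 4 libraries, WT FLX 6, Brd1+/- vehicle 7, Brd1+/- vehicle 4 and WT IMN 6, and these had Pomc at 20, 15.8, 14.6 and 8.52 TPM. In WT FLX 6 Gh reached 64.7 and Prl 90.1 TPM, beside Agrp at 0.474 TPM. The other 42 libraries had Pomc at no more than 6.5 TPM, with a median of 2.87. Gh and Prl were both listed at 0 in 37 of 48 libraries. Over all libraries the pituitary list moved with Pomc (r = 0.67, rho = 0.52, adjusted permutation p = 7.78e-05 for r), with r between 0.59 and 0.97 in the 6 groups, and r was 0.75 without the 3 libraries highest in Pomc. With the hypothalamus list r was 0.26, or 0.38 without those 3. The high Pomc libraries also set the sign of the genotype value: the averaged difference of 0.12 was -0.36 ± 0.23 without the 2 libraries above 100 TPM.

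**Figure D5:**
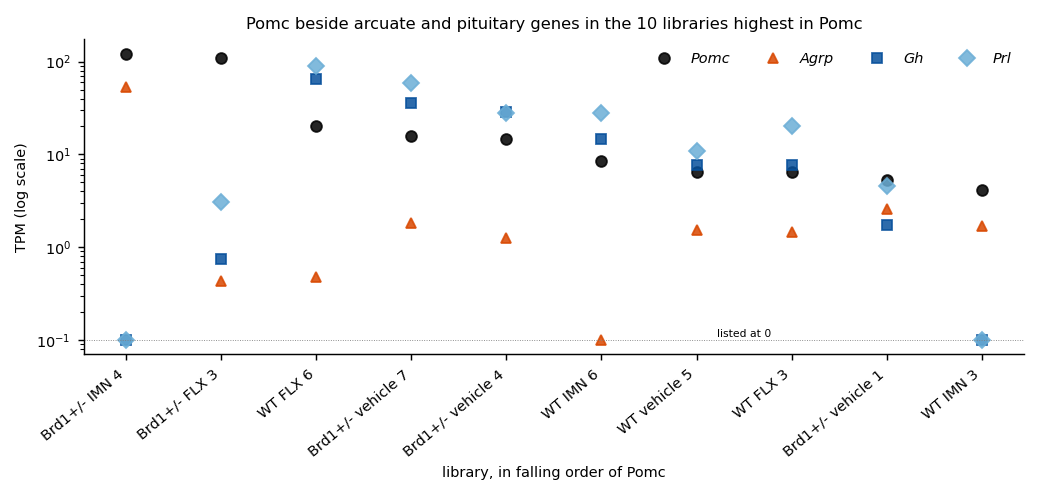
TPM (log axis) of Pomc, of the arcuate gene Agrp and of the pituitary genes Gh and Prl in the 10 libraries highest in Pomc, ordered by Pomc; values listed at 0 are drawn on the dotted line. Agrp is high in Brd1+/- IMN 4 alone (52.6), Gh and Prl are high in the 4 libraries with Pomc from 8.52 to 20 TPM, and neither is high in Brd1+/- FLX 3.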

How the data were processed

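Per the labels and the study's methods, brains were frozen, cut coronally and punched, RNA was extracted and libraries were made with a TruSeq kit. The submitters' processing notes name FastQC, Trimmomatic, HISAT2 2.1.0 and StringTie 1.3.4, with GRCm38. The authors deposited TPM, 1 column per library (column sums 999524 to 999772), so depth is unknown and TPM shifts when abundant transcripts of other tissue enter a punch. The authors' own tests used edgeR on counts, which are not used here. The series' design text names other regions; the sample labels say amygdala and were followed.

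Groups came from the labels. Symbols and coordinates came from GENCODE M21 (52489 of 52636 identifiers matched). Values were taken as log2(TPM + 0.1), which understates changes of low genes; genes with TPM of at least 0.1 in at least 8 libraries of a fit were tested in limma 3.58.1 (R 4.3.3, eBayes with a trended prior, two-sided) on the compared groups alone, with Benjamini-Hochberg adjustment over all genes and 0.05 as threshold. Pairs were also compared by exact permutation over 12870 arrangements. Relations used deviations from group means. Nothing says that libraries are more than 1 per mouse. The p-values measure the spread between libraries, in which the mouse and the placing of its punch cannot be told apart. The code was checked on simulated data. The members, marker lists and pathway lists were chosen with earlier results of these data known. Genes named are the members, Brd1, Penk, up to 3 called genes per pathway list and comparison, and the 3 genes most alike to each member; the neighbours of single libraries (Agrp, Oxt, Avp, Gh, Prl), the called marker genes Fezf1, Egr1 and Npas4, and Pcsk1n, Scg5, Pam and Cpe were chosen after their values were seen.

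Alternatives were pseudocounts of 0.01 and 1, other filters, median-ratio scaling, quantile normalization, no trend, a single fit over all groups, a block for replicate numbers, a sample code term, marker covariates and leaving out each library. In drug against vehicle comparisons the sample code term was fitted apart for vehicle and for drug libraries. Its value there compares only the lower-coded libraries of each and is not adjusted for code. In genotype comparisons after a drug the upper part of its split held both genotypes, so it did not set apart the highest codes, held by WT alone. Fits without the libraries above the striatal gap or with Pomc above 100 TPM, and the relations on each side of the gap, were added after seeing the data.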

Additional observations from a re-analysis of the deposited data

Results flagged for a closer look

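Within each member and group the highest and the lowest library were compared with the other 7 in untransformed TPM, and 7 of 42 groups had a library apart. Pomc accounted for 5: Brd1+/- IMN 4 at 121.5 TPM (the others 1.56 to 2.52), Brd1+/- FLX 3 at 108.2 TPM (1.53 to 3.57), WT FLX 6 at 20 TPM (1.88 to 6.49), WT IMN 6 at 8.52 TPM (1.12 to 4.13) and WT vehicle 5 at 6.5 TPM (1.87 to 3.77). In the last, Gh was at 7.77 and Prl at 11 TPM. Oprm1 in WT FLX 6 was at 3.44 TPM, below the 9.24 to 14.4 of the others. The same library was the lowest of its group in Oprk1 (2.58 TPM), Pdyn (11.4 TPM) and Penk (74.8 TPM), with summed GABAergic markers at 391.3 TPM, the lowest of its group. Oprd1 in Brd1+/- vehicle 1 was at 30.1 TPM (6.54 to 15.9), and that library had the highest summed striatal markers of its group, 6928 TPM. What part the markers have in these values was not tested. Chance would flag about 1 in 20 groups if values were normally distributed. Whether TPM values within groups are so distributed was not tested, so 7 of 42 is a description. No interaction of genotype and drug passed the threshold for a member.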

How the results depend on the processing

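With p-values adjusted over all genes, the count of members called stayed at 0 in all 12 comparisons under both other pseudocounts, both other filters, both other scalings, no trend, 1 fit of all libraries, the sample code term, each marker covariate, and the fits without the libraries above the striatal gap or with Pomc above 100 TPM. The exception came from leaving out libraries: in the genotype comparison after FLX the count ran from 0 to 1, with Oprm1 called without WT FLX replicate 6. Unadjusted exact permutation p-values under 0.05 numbered 1 in that comparison and 1 in FLX against vehicle in WT. In drug against vehicle comparisons the sample code term did not adjust for code, so its 0 there is no check on the code ranges. In genotype comparisons after a drug it did not set apart the highest codes, held by WT alone, so it is only a partial check there. With the replicate number as a replicate block the count was also 0. The numbers did not pair the mice: in 0 of 15 pairs of groups did every same-numbered pair of libraries correlate over 0.1, and r ran from -0.41 to 0.65.

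Of values that did not pass the threshold, some changed sign; the cause was not tested. Pdyn in FLX against vehicle in WT was -0.15 with the glutamatergic covariate. With the sample code term Pdyn was -1.13 there, a value that compares only the lower-coded libraries of both groups and is not adjusted for code. With the hypothalamus covariate the genotype by FLX values were 0.26 for Pnoc, 0.13 for Oprm1 and -0.23 for Oprd1. Averaged over treatments, the genotype value of Pomc ran up to 0.22 and Pdyn's up to 0.41 with single libraries left out. Pomc was -0.13 without Brd1+/- IMN replicate 4, -0.11 without Brd1+/- FLX replicate 3 and -0.36 without both. That of Pdyn was -0.08 without WT vehicle replicate 5 and -0.20 without the libraries above the striatal gap. That of Oprd1 was -0.01 with the hypothalamus covariate and -0.08 without the libraries above the gap, and that of Oprk1 was 0.01 without Brd1+/- IMN replicate 3. That of Oprl1 was 0.00 with the striatal covariate, 0.09 with the hypothalamus covariate, 0.03 without the libraries above the gap, and 0.00 or 0.01 without any 1 of 5 libraries.

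The count of relations among members that passed, 10 in the main fit, was 9 to 14 under other pseudocounts, scaling, rank and omission of 2 libraries. It was 8 with the striatal list removed, but these were not 8 of the same 10. Of the 10, Pnoc with Oprm1 (0.65), Pnoc with Oprl1 (0.54) and Oprm1 with Oprl1 (0.72) stayed high. The others then had an r of at most 0.30 in size. Pairs that had not passed with r rose, among them Pdyn with Oprm1 (0.68) and Pdyn with Pnoc (0.67). Within single groups of 8, by exact permutation, 0 passed in WT vehicle, WT FLX and Brd1+/- FLX, 2 in WT IMN, 3 in Brd1+/- vehicle and 4 in Brd1+/- IMN. The count of relations with marker lists that passed, 24 in the main fit, was 22 to 26 under the same alternatives. Within groups it was 0 in WT vehicle, WT IMN and Brd1+/- FLX, 1 in Brd1+/- vehicle, 2 in Brd1+/- IMN and 3 in WT FLX. Without counts, no counting error or detection limit could be set.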
